A study of Homo sapiens with 12 samples.

Results

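The 7 human TRAF genes, TRAF1 to TRAF7, encode the TNF receptor-associated factors. They were picked by symbol out of 56634 gene symbols counted by RNA sequencing in HCT116, an established human colorectal carcinoma cell line. All 7 were in the table and all 7 passed the filter on low counts, which left 13084 genes to test. The 12 libraries formed 4 groups of 3 biological replicates. TNF plus Senexin B cells had 1 µM Senexin B for 1 hour before 10 ng/mL TNF was given for 2 hours. TNF cells had 0.1% DMSO in place of the inhibitor and then the same TNF. Senexin B cells had the inhibitor without TNF, and control cells had 0.1% DMSO, each for 3 hours. TNF is an inflammatory cytokine, and Senexin B inhibits CDK8 and CDK19, the kinases of the Mediator complex. All groups are the same cell line, so the values describe 1 tumour-derived line at a single early time.

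TRAF proteins are adaptors inside the cell. They bind the tails of activated TNF receptor family members, or reach receptors of the IL-1 and Toll-like family through other adaptors, and gather ubiquitin ligases and kinases there. Most carry a RING domain, as ubiquitin ligases do, and a C-terminal TRAF (MATH) domain that binds receptors; TRAF1 lacks the RING, and TRAF7 has WD40 repeats where the others have the TRAF domain. TRAF2 at the TNF receptor brings in the ubiquitin ligases BIRC2 and BIRC3 (cIAP1 and cIAP2) on the way to classical NF-kB, whereas TRAF3 with TRAF2 and those ligases keeps the kinase MAP3K14 (NIK) low and so holds back the alternative NF-kB pathway.

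TRAF3 and TRAF1 were the members with an adjusted p under 0.05 in the planned contrasts of cells with and without TNF. Their promoter windows are therefore shown, from 250 bases before to 50 bases after the RefSeq start in GRCh38.p14. The TRAF3 window is chr14:102777199-102777498 on the plus strand, and the capitals mark the match to the NF-kB consensus found there. The TRAF1 window is chr9:120929122-120929421 on the minus strand, the one of its 3 listed windows that lies at the 5′ end of the annotated gene.
TRAF3 promoter: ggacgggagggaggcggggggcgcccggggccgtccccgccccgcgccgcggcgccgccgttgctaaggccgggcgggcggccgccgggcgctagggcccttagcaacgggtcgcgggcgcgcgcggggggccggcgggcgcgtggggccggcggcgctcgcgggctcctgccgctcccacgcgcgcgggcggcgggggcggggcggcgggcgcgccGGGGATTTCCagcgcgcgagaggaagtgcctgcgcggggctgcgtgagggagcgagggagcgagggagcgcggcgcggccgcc
TRAF1 promoter: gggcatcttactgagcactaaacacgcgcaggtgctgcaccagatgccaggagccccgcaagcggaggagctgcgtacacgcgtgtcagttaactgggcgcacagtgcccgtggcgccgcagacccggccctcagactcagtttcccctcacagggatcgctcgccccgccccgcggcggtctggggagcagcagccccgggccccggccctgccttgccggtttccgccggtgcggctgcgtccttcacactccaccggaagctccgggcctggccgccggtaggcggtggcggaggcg
The TRAF3 match reads GGGGATTTCC on the plus strand and begins at position -33 from the start. Windows were searched on both strands for the NF-kB consensus of 10 letters, for TATAAA and for TGACTCA. No other window of the 7 genes held a match to any of these, including 3 windows each for TRAF1 and TRAF5. Of 34943 RefSeq promoter windows of the same length, 5.9% held the NF-kB consensus, 11.57% TATAAA and 4.96% TGACTCA. A match is a string of letters in the window, and binding was not measured.

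Library totals lay between 5835226 and 9281176 counts, lowest in TNF replicate 1, and the biological coefficient of variation over all tested genes was 3.62%. The TNF labels were checked on NFKBIA, which encodes an NF-kB inhibitor and is an NF-kB target: it averaged 255 CPM (counts scaled to a common library size) in TNF plus Senexin B cells, 295 CPM in TNF cells, 22.8 CPM in Senexin B cells and 25.3 CPM in control cells. All 7 epithelial markers were detected, with a summed level between 4090 and 4840 CPM in all libraries. Of 3 colorectal markers, CDX2 was present and CDX1 and VIL1 were at 0 counts throughout. Summed markers of blood cells reached at most 0.674 CPM, those of endothelial cells 0.977 CPM and those of fibroblasts between 7.46 and 11.2 CPM, nearly all of it COL1A1; 3 of the 6 fibroblast markers were at 0 in each group. TNF replicate 1 stood apart: its deviation from the group mean correlated with transcript GC content across genes (Spearman rho = -0.53). It was the lowest TNF library for TRAF1, TRAF2, TRAF3, TRAF4 and TRAF7. Control replicate 1 also differed from its group, though with rho = -0.17. Control replicate 3 had rho = 0.24 and was the highest control library for TRAF1, TRAF2, TRAF3, TRAF4 and TRAF7. Compared with its group by counts, control replicate 1 had a chi-square per degree of freedom of 2.62 and 2.76. TNF replicate 1 had 2.72 and 2.45, and the other pairs within groups had 1.21 to 1.71. Across the 93.1% of tested genes with a known GC content, the log2 fold change in TNF against control had rho = -0.41 with it. Results of fits with GC-corrected offsets are given below, and the cause of this link was not tested. Where the call of a gene named here changed without TNF replicate 1, both values are given.

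TRAF7 was the most abundant member in every group and TRAF1 the least, when levels were divided by exon length. In control cells TRAF7 averaged 44.5 CPM per kb of exon, ahead of TRAF4 at 17.7, TRAF3 at 10.9, TRAF2 at 9.53, TRAF6 at 3.40, TRAF5 at 1.36 and TRAF1 at 0.187 CPM per kb. In both TNF groups TRAF3 stood second, at 21.6 CPM per kb in TNF plus Senexin B cells and 20.7 in TNF cells, above TRAF4 at 15.9 and 17.2. Neighbours in this order did not overlap between libraries of a group, except TRAF3 and TRAF2 in Senexin B cells. The place of TRAF3 depended on the length used. With the longest transcript, TRAF3 stood below TRAF4 in both TNF groups, at 23.2 against 25.0 CPM per kb in TNF plus Senexin B cells and at 22.2 against 27.1 in TNF cells, and below TRAF2 in control cells, at 11.7 against 15.4.

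**Figure D1:**
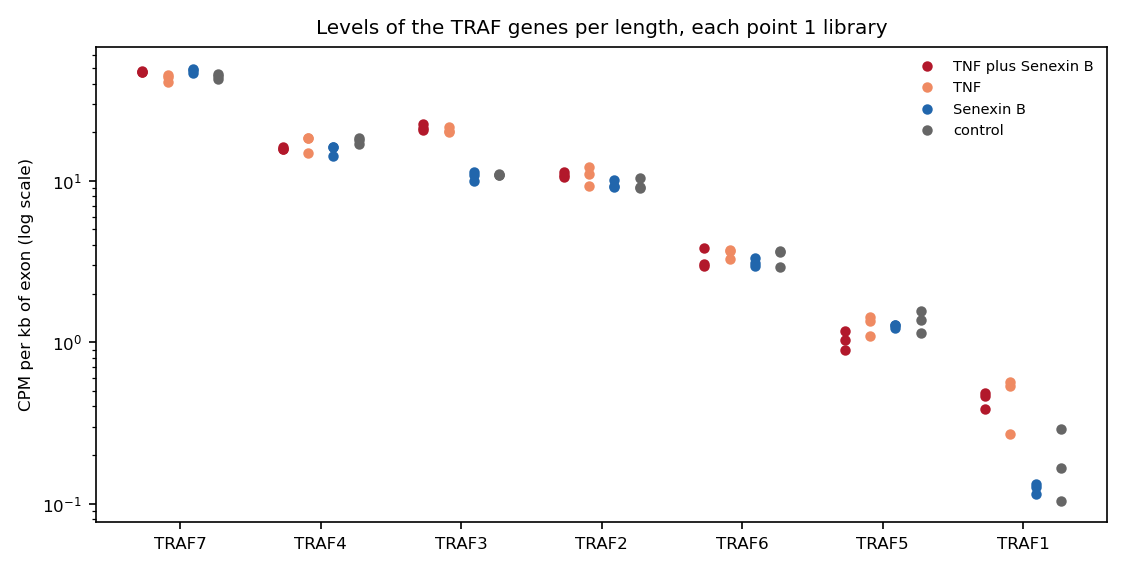
Level of each TRAF gene in CPM per kb of exon on a log axis; each point is 1 library and colours are the 4 groups. TRAF7 is at the top and TRAF1 at the bottom in all groups, and on exon length TRAF3 sits above TRAF4 in the TNF groups but below it in Senexin B and control cells; with the longest transcript as length it is below TRAF4 in all 4 groups.

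TRAF3 made up 21.4% ± 0.555 of the family's summed per-length level in TNF plus Senexin B cells, 21.2% ± 0.876 in TNF cells, 12.1% ± 0.309 in Senexin B cells and 12.5% ± 0.269 in control cells (SD, n = 3 each). Its per-length level relative to TRAF2 was 1.98 ± 0.0139 and 1.92 ± 0.227 in the same TNF groups, against 1.13 ± 0.121 in Senexin B cells and 1.15 ± 0.0718 in control cells. These shares and ratios used exon length and depend on that choice. With the longest transcript, TRAF3 and TRAF2 averaged 22.2 and 17.6 CPM per kb in TNF cells and 11.7 and 15.4 in control cells. The shift in makeup appeared in both groups that received TNF; without TNF replicate 1 the TNF libraries had TRAF3 shares of 20.3% and 21.2% and ratios to TRAF2 of 1.69 and 1.93.

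TRAF3 (ENSG00000131323.14, chr14:102777476-102911500, plus strand) rose with TNF both with and without Senexin B and had the smallest adjusted p of the family. Besides its role in the alternative NF-kB pathway, its protein is an adaptor for type I interferon induction. It stood at 165, 169 and 178 CPM in TNF cells and at 89.6, 89.4 and 91.5 CPM in control cells, with no overlap; 12.6% of all tested genes had their TNF libraries above all control libraries. The fold was 1.90 (95% interval 1.76 to 2.04; log2 0.92 ± 0.05 SE; edgeR adjusted p = 6.93e-22), rank 35 by p among the tested genes; without TNF replicate 1 the log2 fold change was 0.95. In TNF plus Senexin B cells it had 187, 171 and 177 CPM, against 82.9, 89.6 and 93.3 CPM in Senexin B cells, again without overlap, and the fold was 2.01 (interval 1.87 to 2.16; log2 1.01 ± 0.05; edgeR adjusted p = 5.09e-24). TNF plus Senexin B versus control gave 0.98 ± 0.05 (edgeR adjusted p = 1.48e-23). A bulk level cannot tell a higher level in every cell from a larger share of expressing cells.

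Neither TRAF3 contrast that turns on Senexin B passed the test. TNF plus Senexin B against TNF gave a log2 fold change of 0.06 ± 0.05 SE (interval -0.04 to 0.16; edgeR adjusted p = 0.539), and Senexin B against control gave -0.02 ± 0.06 (interval -0.13 to 0.09; edgeR adjusted p = 0.899). The TNF response with and without the inhibitor differed by 0.08 on the log2 scale (interval -0.06 to 0.23; edgeR adjusted p = 0.881). NFKBIA, TNFAIP3 and CXCL8, NF-kB targets, did fall in TNF plus Senexin B relative to TNF, by 0.21, 0.27 and 0.79 on the log2 scale. That contrast called 5.45% of tested genes. None of these targets was called for a different TNF response with the inhibitor (edgeR adjusted p = 0.938, 0.991 and 0.978). Other genes that rose with TNF were not called in TNF plus Senexin B against TNF, among them IRAK2 (-0.04), TICAM1 (0.08) and IKBKE (-0.15), and BIRC2 rose.

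TRAF1 (ENSG00000056558.10, chr9:120902393-120929173, minus strand), whose RING-less protein pairs with TRAF2 and whose gene is a known NF-kB target, was the least abundant member and rose with TNF. It stood at 1.73, 3.43 and 3.66 CPM in TNF cells and at 0.674, 1.07 and 1.88 CPM in control cells. TNF replicate 1 therefore lay below control replicate 3, and the groups overlap. The fold was 2.45 (interval 1.53 to 3.91; log2 1.29 ± 0.34 SE; edgeR adjusted p = 0.00418), with an edgeR adjusted p of 0.000602 without TNF replicate 1. DESeq2 gave TRAF1 no adjusted p in this contrast. With Senexin B present the groups separated, at 3.13, 2.47 and 3.00 CPM in TNF plus Senexin B cells and 0.82, 0.744 and 0.856 CPM in Senexin B cells; the fold was 3.49 (interval 2.05 to 5.95; edgeR adjusted p = 0.000135; 11.5% of tested genes were all higher). Counts were small, 68 in all TNF libraries and 31 in all control libraries.

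TRAF1 and TRAF3 were the only members called in the TNF contrasts as planned: 2 of 7, both higher, against control, beside a background of 10.0% of tested genes called, 5.81% higher and 4.20% lower. The same 2 rose in TNF plus Senexin B versus Senexin B, where the background was 5.95% called and 4.27% higher, and in TNF plus Senexin B versus control, where it was 11.2% and 6.09%. The last contrast shares its control libraries with the first. For TRAF1 in TNF plus Senexin B against control (log2 1.19 ± 0.33 SE; edgeR adjusted p = 0.00646), the call was lost with DESeq2 (adjusted p = 0.0728) and without control replicate 1 (log2 0.94; edgeR adjusted p = 0.064). In that contrast GC-corrected offsets called 6 of the 7 genes, all but TRAF6, where 13.6% of all tested genes were called. The median log2 fold change of the 7 genes in TNF against control was 0.06, beside -0.005 for all tested genes.

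**Figure D2:**
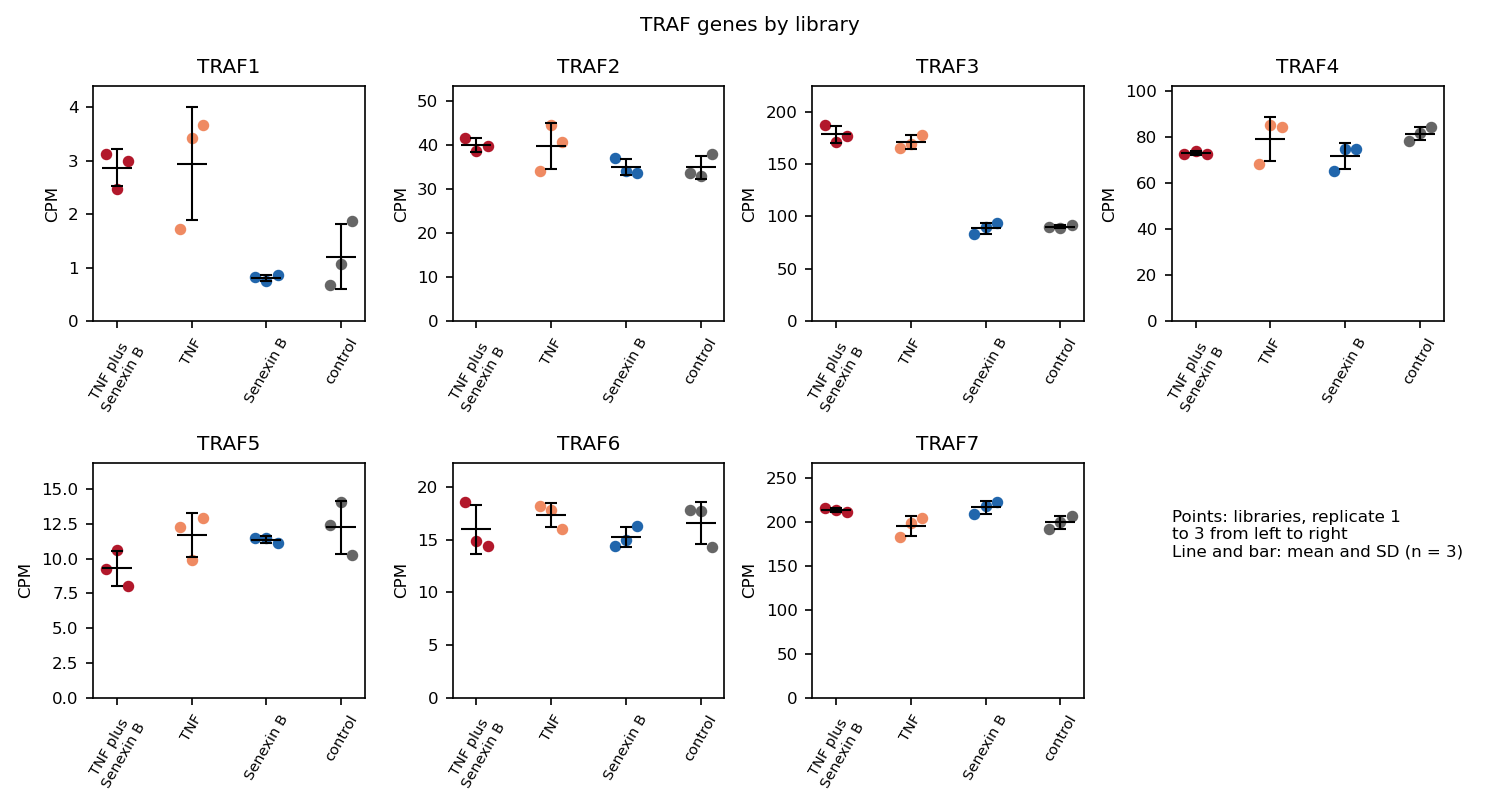
CPM of the 7 TRAF genes by library, with each panel's axis starting at 0; points are replicates 1 to 3 from left to right, lines the mean and SD (n = 3). TRAF3 separates the TNF groups from the others and TRAF1 does so apart from TNF replicate 1, whereas TRAF2 and TRAF4 to TRAF7 show overlapping or small differences.

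TRAF2 (ENSG00000127191.17, chr9:136881912-136926607, plus strand), the adaptor at the TNF receptor, had a slightly higher mean with TNF. It had 34.2, 44.5 and 40.8 CPM in TNF cells and 33.7, 33.0 and 38.0 CPM in control cells, which overlap, and 41.6, 38.6 and 39.7 CPM in TNF plus Senexin B cells and 37.0, 34.1 and 33.7 CPM in Senexin B cells, which do not (11.5% of tested genes were all higher there). Its log2 fold change with TNF was 0.20 ± 0.08 SE (interval 0.04 to 0.37; edgeR adjusted p = 0.117), so it was not called. It was called without TNF replicate 1 (0.29; edgeR adjusted p = 0.0166) and with GC-corrected offsets (0.30; edgeR adjusted p = 0.00422). In all, 4 of 15 alternatives called it, with log2 fold changes from 0.115 to 0.298. The averaged contrast given below is among these 4 and was not planned, so it is not separate support. The edgeR adjusted p was highest without TNF replicate 2, at 0.491. Averaged over cells with and without the inhibitor, a contrast added after the data were seen, the TNF effect was 0.20 ± 0.06 (interval 0.08 to 0.31; edgeR adjusted p = 0.0127; background 14.2% called, 7.85% higher), and without TNF replicate 2 its adjusted p was 0.0754. The corresponding TRAF1 and TRAF3 averages were 1.55 ± 0.26 and 0.97 ± 0.04.

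TRAF4 had lower and TRAF7 higher means with Senexin B, by small amounts, and neither was called in a planned contrast. Both proteins sit somewhat apart from the TNF receptor: TRAF4 is known from carcinomas and TGF-beta signalling, and TRAF7 from its partner kinase MAP3K3. TRAF4 (ENSG00000076604.14, chr17:28743984-28750958, plus strand) had 65.3, 74.9 and 74.9 CPM in Senexin B cells and 78.3, 81.9 and 84.2 CPM in control cells, with no overlap (10.0% of tested genes were all lower). Its log2 fold change was -0.19 ± 0.06 (interval -0.31 to -0.06; edgeR adjusted p = 0.0999), and it was called with GC-corrected offsets (-0.20; edgeR adjusted p = 0.0129). In TNF plus Senexin B cells it had 72.6, 74.1 and 72.6 CPM, against 68.3, 85.1 and 84.2 CPM in TNF cells, overlapping only through TNF replicate 1. Antisense genes lie over 10.66% and 6.24% of its exon bases. The contrast of TNF plus Senexin B with TNF gave -0.13 ± 0.06 (edgeR adjusted p = 0.263), and -0.21 without TNF replicate 1 (edgeR adjusted p = 0.0259).

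TRAF7 (ENSG00000131653.12, chr16:2155698-2178129, plus strand) went the other way, at 209, 218 and 223 CPM in Senexin B cells and 192, 200 and 207 CPM in control cells, with no overlap (9.96% of tested genes were all higher). With TNF it had 216, 213 and 211 CPM in TNF plus Senexin B cells and 183, 199 and 204 CPM in TNF cells, again without overlap (11.3% all higher). The log2 fold changes were 0.12 ± 0.045 (edgeR adjusted p = 0.166) and 0.13 ± 0.05 (edgeR adjusted p = 0.091); the second was 0.09 without TNF replicate 1 and 0.06 with GC-corrected offsets (edgeR adjusted p = 0.529). Part of its exons, 21.16%, lies over CASKIN1 on the opposite strand, which had 273 counts in all libraries together against 20393 for TRAF7.

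Averaged over cells with and without TNF, the added contrast put the Senexin B effect at -0.16 ± 0.045 for TRAF4 (interval -0.25 to -0.07; edgeR adjusted p = 0.0154) and 0.12 ± 0.03 for TRAF7 (interval 0.06 to 0.19; edgeR adjusted p = 0.00697), beside 10.1% of tested genes called, 5.18% higher and 4.89% lower. The TRAF4 call was lost without Senexin B replicate 1, TNF replicate 2 or TNF replicate 3, with adjusted p up to 0.0862. The TRAF7 call held in all 12 fits that left out 1 library, up to adjusted p = 0.0326, and was 0.08 with GC-corrected offsets (edgeR adjusted p = 0.0455). TRAF3 was near 0 in this contrast (0.02; interval -0.06 to 0.09). In the planned contrasts none of the 7 was called in Senexin B against control (2 at unadjusted p under 0.05; none with DESeq2; background 3.04%) or in TNF plus Senexin B against TNF (3 at unadjusted p under 0.05; none with DESeq2; background 5.45%).

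TRAF5 (ENSG00000082512.14, chr1:211326615-211374946, plus strand), which acts beside TRAF2 at several TNF receptor family members, had its lowest mean in TNF plus Senexin B cells. It had 9.28, 10.6 and 8.07 CPM there, 12.3, 9.93 and 12.9 CPM in TNF cells, 11.5, 11.5 and 11.1 CPM in Senexin B cells, and 12.4, 14.1 and 10.3 CPM in control cells. The treated and control groups overlap at 10.6 and 10.3 CPM. Against control the log2 fold change was -0.39 ± 0.14 (interval -0.67 to -0.12; edgeR adjusted p = 0.0516), with edgeR adjusted p between 0.0159 without control replicate 3 and 0.326 without control replicate 2. TRAF6 (ENSG00000175104.14, chr11:36487027-36510272, minus strand), the ubiquitin ligase adaptor of IL-1 and Toll-like receptors, averaged 16.0 ± 2.26 CPM in TNF plus Senexin B cells, 17.3 ± 1.17 in TNF cells, 15.2 ± 0.949 in Senexin B cells and 16.6 ± 2.01 in control cells (SD, n = 3 each), and no contrast called it.

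**Figure D3:**
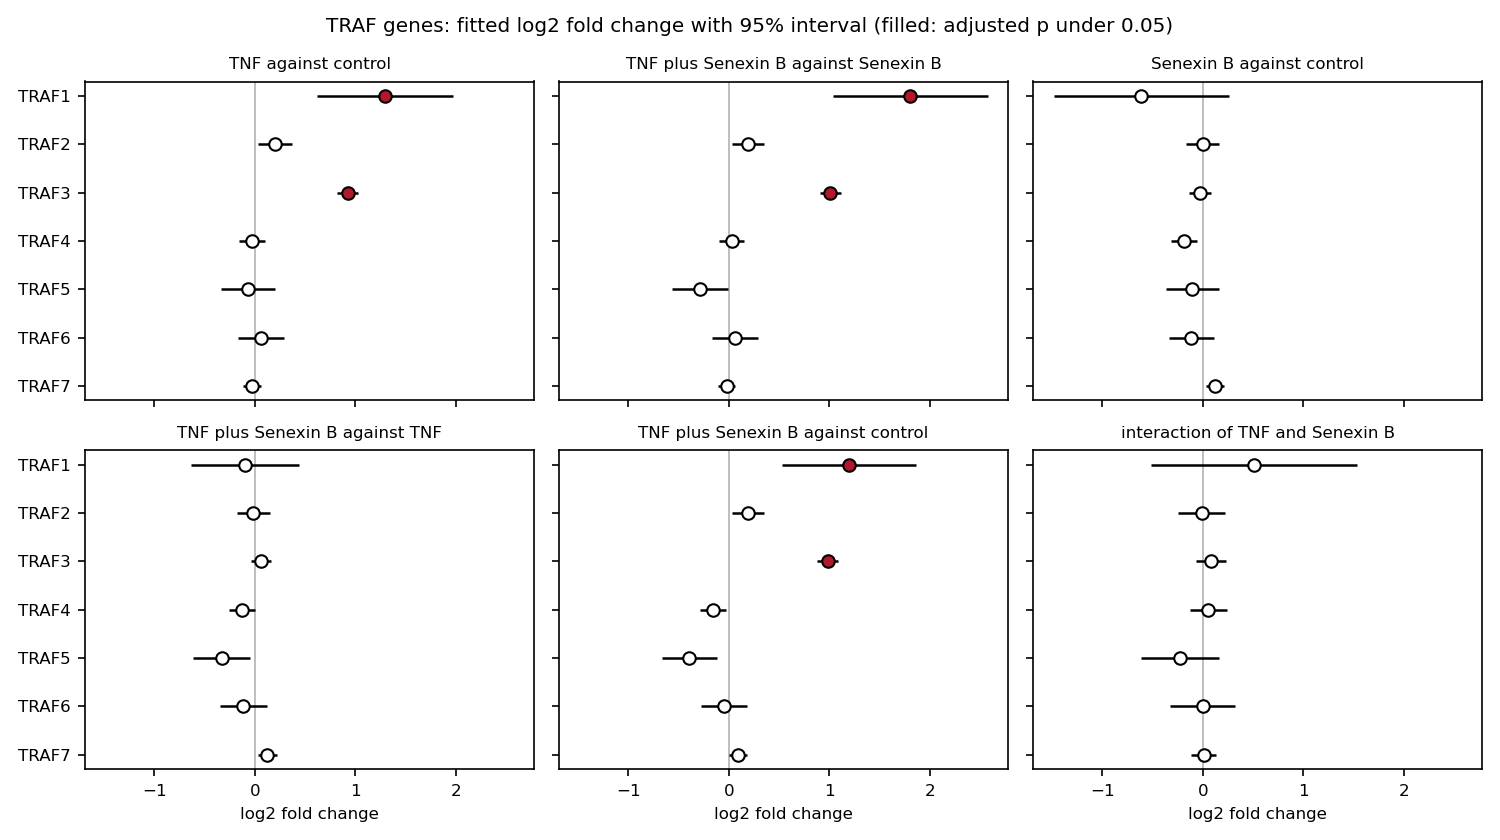
Log2 fold change of each TRAF gene with its 95% interval in the 5 contrasts between groups and in the interaction; filled points have an adjusted p under 0.05. TRAF3 lies near 1 in the contrasts of TNF against no TNF, and TRAF1 lies higher there with a wide interval. TRAF5 lies below 0, uncalled, in TNF plus Senexin B against control (-0.39), TNF (-0.33) and Senexin B (-0.29). TRAF2, TRAF4, TRAF6 and TRAF7 lie near 0.

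No TRAF gene was called for the difference between the TNF effect with and without Senexin B, where only 6 of 13084 genes were (0.0459%; no member at unadjusted p under 0.05; none with DESeq2). For TRAF1 that difference was 0.51 on the log2 scale with an interval of -0.51 to 1.54, which spans sizeable differences in either direction at its counts.

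By correlation of log2(CPM + 1) over the 12 libraries, among genes averaging at least 5 CPM, TRAF3 was most like PISD (Pearson r = 0.994), TRIM25 (0.994) and HIVEP2 (0.993). PISD and TRAF3 had r = 0.823 within the libraries with TNF and r = 0.086 within those without. TRAF1 was most like ABR (0.976), ITGA5 (0.948) and CYFIP1 (0.947), and TRAF2 most like TRIP10 (0.929), ZFP36L2 (0.917) and SLC37A1 (0.892). For TRAF4 the closest were KDM2A (0.878), WASF1 (0.849) and HBEGF (0.844), for TRAF5 DNAJB5 (0.91), UBE2G1 (0.874) and FZD5 (0.863), for TRAF6 POLR2K (0.926), MAPK9 (0.892) and ALG13 (0.869), and for TRAF7 AP3D1 (0.946), PHGDH (0.938) and FURIN (0.935). The libraries share treatments, depth and dependence on GC content, and the highest values among at least 10518 genes each are given as a description.

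Around the TRAF genes, those that rose with TNF included ligases and inhibitors that share complexes with TRAF2 and TRAF3. The list counts below stand beside 5.81% of all tested genes called higher and 4.20% lower in TNF against control. Of 8 genes of the alternative NF-kB arm, 6 rose with TNF (median log2 fold change 0.99, beside -0.005 for all tested genes): NFKB2, whose precursor is processed in this pathway, by 2.10 ± 0.05, RELB, its partner, by 3.01 ± 0.11, BIRC2 by 1.58 ± 0.06 and BIRC3 by 6.72 ± 0.30, with smaller rises of CD40 and CHUK. In TNF plus Senexin B versus Senexin B 4 of these 8 were called higher, NFKB2, RELB, BIRC2 and BIRC3, beside 4.27% of all tested genes. BIRC3 averaged 219 CPM in TNF plus Senexin B cells, 333 CPM in TNF cells, 2.55 CPM in Senexin B cells and 3.21 CPM in control cells. MAP3K14, which encodes the kinase held low by TRAF3, was not called and averaged 27.6 ± 2.30 CPM in TNF cells and 25.4 ± 2.13 CPM in control cells. These are RNA levels, and the level of the kinase protein was not measured. Of 18 partners in the TNF receptor complex, 4 rose (median -0.007): BIRC2, BIRC3, IKBKB (0.44 ± 0.10) and CHUK (0.16 ± 0.05), the last 2 being kinases of the IKK complex. In TNF plus Senexin B versus Senexin B 2 of these 18 were called higher, BIRC2 and BIRC3. IKBKB (0.15, edgeR adjusted p = 0.485) and CHUK (0.09, edgeR adjusted p = 0.419) were not called there. Of 15 tested regulators that bind TRAF proteins, 5 rose (median 0.01): TNFAIP3 and CYLD, deubiquitinases that act on TRAF signalling (4.38 ± 0.16 and 1.02 ± 0.10), SQSTM1 (0.71 ± 0.04), TIFA (1.04 ± 0.07) and TANK (0.50 ± 0.07).

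Of the receptors that recruit TRAF proteins, 12 of 20 were tested (median -0.16); CD40 rose (0.40 ± 0.10), TNFRSF1A, the main TNF receptor, fell by 0.18 ± 0.06, and TNFRSF9 rose, averaging 14.2 CPM in TNF cells and 0.198 CPM in control cells. In TNF plus Senexin B cells TNFRSF9 averaged 9.67 CPM, with 0 counts in Senexin B cells. The kinase gene IRAK2 (2.44 ± 0.15) and TICAM1 (0.89 ± 0.08), which encodes the Toll-like receptor adaptor TRIF, rose among 15 tested genes of the IL-1 and Toll-like receptor arm (median -0.01), a share near the 10.0% of all tested genes called in either direction. The RNA sensor genes IFIH1 (1.49 ± 0.14) and DDX58 (1.34 ± 0.11) and the kinase gene IKBKE (1.61 ± 0.16) rose among 8 genes of the antiviral arm that TRAF3 serves (median 0.24). Of 4 tested genes with a MATH domain outside the family, SPOPL rose (0.21 ± 0.06; median of the 4 genes 0.05). Without TNF replicate 1 the calls of CHUK (0.09; edgeR adjusted p = 0.295), TNFRSF1A (-0.16; 0.0993) and SPOPL (0.17; 0.0649) were lost, which left 5 of 8 genes of the alternative arm and 3 of 18 partners called higher. The same 3 calls were lost with GC-corrected offsets. The lists share members, and each value is a log2 fold change in TNF against control with SE.

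TNF plus Senexin B against TNF called 5.45% of all tested genes. Of 18 receptor complex partners 2 were called higher and 2 lower, of 15 tested regulators 1 and 3, and of 12 tested receptors 1 and 2. Of 8 genes of the alternative arm 2 were higher and 1 lower, and no gene of the other lists was called. With Senexin B on top of TNF, BIRC3 fell by 0.60 ± 0.09, SQSTM1 by 0.34 ± 0.04 and CYLD by 0.41 ± 0.09. In the same contrast BIRC2 rose by 0.17 ± 0.05 and TANK by 0.23 ± 0.06. These 5 calls held without TNF replicate 1. Also called were TNFAIP3, TNFRSF12A (-0.24 ± 0.05), TNFRSF9 (-0.56), MAPK8 (-0.26 ± 0.06), LTBR (0.18 ± 0.05) and RBCK1 (0.22 ± 0.07). Without TNF replicate 1 the calls of LTBR (0.14, edgeR adjusted p = 0.129) and RBCK1 (0.17, edgeR adjusted p = 0.186) were lost. MYD88, at -0.26 with all libraries (edgeR adjusted p = 0.0932), gained a call without it (-0.35, edgeR adjusted p = 0.0178). With GC-corrected offsets LTBR, RBCK1 and MAPK8 (edgeR adjusted p = 0.0937) were not called. NFKB2 (-0.18, edgeR adjusted p = 0.000188) and RELB (-0.20, edgeR adjusted p = 0.0192) were then called lower. TIFA was then called higher (0.25, edgeR adjusted p = 0.00111). In Senexin B against control, SQSTM1 fell by 0.24 ± 0.04 and TNFRSF12A, a TRAF-recruiting receptor, by 0.25 ± 0.05. No other gene of these lists was called there.

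**Figure D4:**
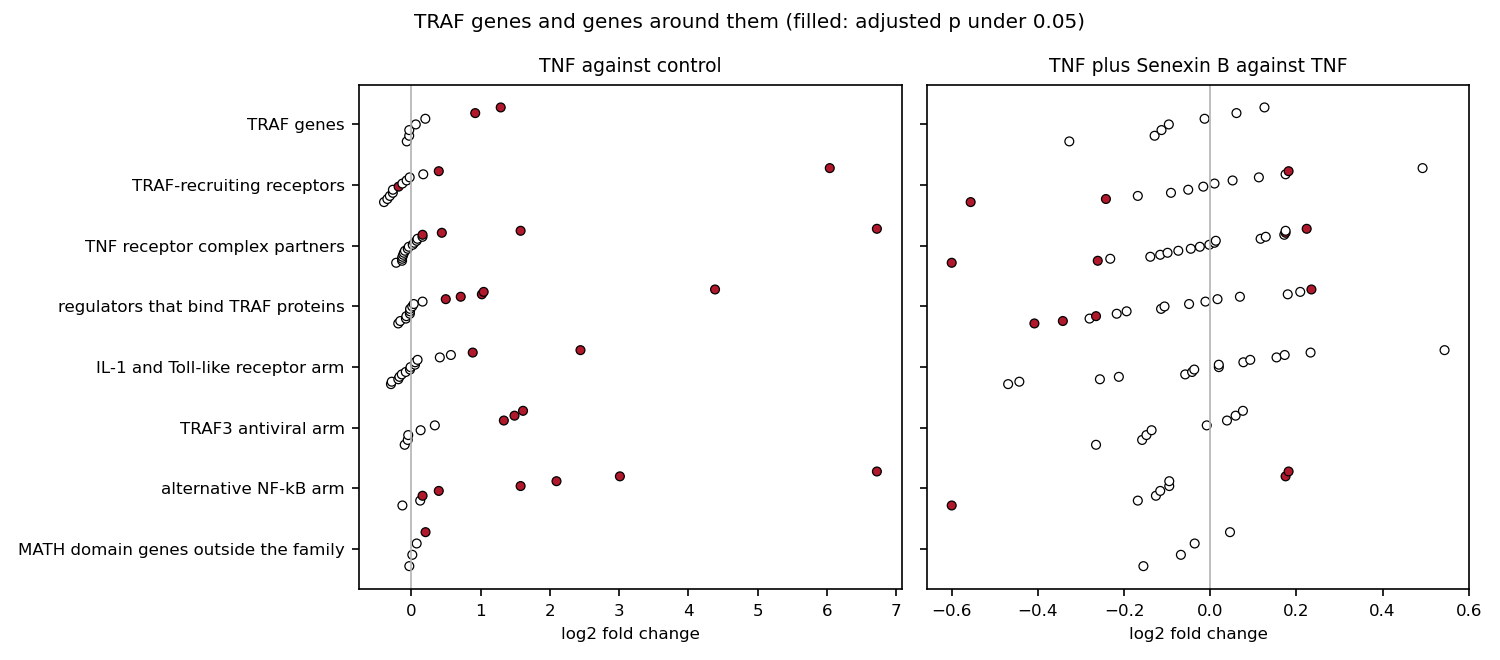
Log2 fold change of the TRAF genes and the genes around them, by list, in TNF against control (left) and in TNF plus Senexin B against TNF (right); each point is 1 tested gene and filled points have an adjusted p under 0.05. TRAF1 and TRAF3 are the filled TRAF genes on the left and none is filled on the right.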

How the data were processed

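Read counts per gene symbol for 12 HCT116 libraries were taken as deposited. Per the submitters' processing notes, the authors' tools were STAR 2.4, SAMtools 1.2, and featureCounts from Subread 1.4.6, on GRCh38 (hg38); the annotation release, strand setting and handling of multimapped reads are not given in the sources used here. Per the labels' protocols, libraries were made with a TruSeq RNA kit, a kind that does not mark strand, so reads of a gene and an antisense partner cannot be told apart.

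edgeR 4.0.16 (R 4.3.3) fitted all 12 libraries with TMM factors, filterByExpr (minimum count 10, total 15) and robust quasi-likelihood F-tests, 1 coefficient per group. A gene was called at a p under 0.05 after Benjamini-Hochberg adjustment over all 13084 tested genes; SE is a Wald error and intervals are 95%. The pipeline was tested on simulated counts. CPM was computed from the counts with TMM-scaled library sizes, and exon length and GC content came from GENCODE 29. The labels call the samples biological replicates and name no separate cultures, so p-values measure the spread between these samples. Replicate numbers were not treated as pairs. Named genes were the 7 members, the 3 most correlated genes of each, in each list at most 4 called genes per contrast, and NFKBIA, TNFAIP3 and CXCL8; TANK with TNF and genes given only as means are outside that rule, chosen after their values were seen. Members and lists were chosen with earlier results of these data known. Alternatives were DESeq2 1.42.0, other size factors, no filter, GC-corrected offsets, a replicate block, 2-group fits and leaving out libraries. For TNF or Senexin B against control, the average over both states of the other agent also counted as an alternative. That average was added after the data were seen.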

Additional observations from a re-analysis of the deposited data

How the results depend on the processing

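TRAF3 was called in each alternative of each TNF contrast (log2 0.89 to 0.97 for TNF against control), and TRAF1 in each that gave an adjusted p for TNF against control (1.04 to 1.78, adjusted p up to 0.0485); DESeq2 gave TRAF1 no adjusted p there, so it called 1 TRAF gene. The count of TRAF genes called was 1 in place of 0 for Senexin B alone against control with only the 2 groups compared, GC-corrected offsets, the replicate block with GC-corrected offsets, and without control replicate 1 and TNF replicate 1 together (TRAF4 each time), and 2 for the mean effect. For TNF plus Senexin B versus TNF it was 1 with both GC corrections and without both libraries, and 0 to 1 over the fits that left out 1 library. For TNF plus Senexin B versus control it was 1 with DESeq2, 6 with both GC corrections (13.6% of all tested genes, and 14.7% with the block) and 1 to 3 when leaving out 1 library. The cause was not tested. With the longest transcript as length, levels in control cells were 15.4 (TRAF2), 11.7 (TRAF3), 27.9 (TRAF4), 2.47 (TRAF5) and 54 (TRAF7) CPM per kb.

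Reversed signs concern uncalled values near 0. With GC-corrected offsets TRAF4 and TRAF7 had 0.023 and 0.06 in TNF against control, TRAF7 0.014 in TNF plus Senexin B versus Senexin B, and TRAF6 0.037 and TRAF7 -0.046 in the interaction; adding the replicate block gave 0.018, 0.059, 0.015, 0.031 and -0.044. Without both libraries, TRAF4 had 0.026 (TNF against control), TRAF6 0.002 (TNF plus Senexin B versus control) and TRAF7 -0.004 (interaction). Without the low-count filter TRAF2 had 0.01 in Senexin B against control, with DESeq2 TRAF6 had 0.003 in the interaction, and the mean Senexin B effect of TRAF3 was 0.018. Leaving out 1 library gave, for TNF against control, -0.082 to 0.053 (TRAF4), -0.188 to 0.054 (TRAF5), -0.039 to 0.124 (TRAF6) and -0.061 to 0.01 (TRAF7); for Senexin B against control, -0.047 to 0.068 (TRAF2), -0.065 to 0.02 (TRAF3) and -0.226 to 0.016 (TRAF5); for TNF plus Senexin B versus TNF, -0.308 to 0.076 (TRAF1) and -0.096 to 0.076 (TRAF2); for TNF plus Senexin B versus Senexin B, -0.033 to 0.063 (TRAF4), -0.057 to 0.133 (TRAF6) and -0.045 to 0.001 (TRAF7); for TNF plus Senexin B versus control, -0.168 to 0.021 (TRAF6); and for the interaction, -0.093 to 0.079 (TRAF2), -0.026 to 0.11 (TRAF4), -0.122 to 0.103 (TRAF6) and -0.032 to 0.04 (TRAF7).

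Over all genes, calls with DESeq2 were 801, 259, 438, 485 and 943, against 1309, 398, 713, 779 and 1462 with edgeR, for TNF and then Senexin B relative to control, followed by TNF plus Senexin B relative to TNF, to Senexin B and to control. Leaving out 1 library gave 236 to 333 for Senexin B against control, 451 to 815 for TNF plus Senexin B versus TNF and 2 to 9 for the interaction, which had 6, and 10 without the filter. The replicate numbers were not taken as pairs, since the design text names biological triplicates, and the replicate block was kept as an alternative. Of 18 same-numbered pairs 1 correlated over 0.1 (range -0.011 to 0.117, against -0.099 to 0.06 for different numbers). However, 5 of 12 libraries correlated best with their own number in every other group, a hint of pairing from the data and not the design. With the replicate block the calls were 1470, 479, 871, 827 and 1580 in the same order, and 692 for Senexin B against control with GC correction; among TRAF genes the block alone added TRAF5 in TNF plus Senexin B versus control (-0.39, edgeR adjusted p = 0.0443). Depth limits TRAF1 most, where counting alone gives a coefficient of variation of 20.3% to 37.8% per library, from the highest to the lowest group.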
